A study of Mus musculus with 10 samples.

Results

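The comparison described here set mouse embryonic fibroblasts (MEFs) of a pretreated arm at 4 h against the same arm at 1 h. Each time was measured in 1 library, so 2 of the 10 libraries of the study form the comparison, and they were chosen by their labels, not by measured values. MEFs are connective tissue cells grown out of embryos. All 10 groups were MEFs of C57BL/6 origin carrying an H3.3b-HA knock-in, in which a cDNA for the histone variant H3.3 with an HA tag stands in place of H3f3b, and no cells without the knock-in were measured. Interferon-beta (IFN-β) is given at 100 U per ml for every group. Naive cells and pretreated cells were each sampled at 0, 1, 2, 4 and 6 h, taken here as hours of IFN-β. The labels of the deposited values mark the pretreated cells as PreIFN, which names interferon as the agent. Its type, its dose, how long it was given and whether it was washed out are not stated in the sources. The age of the embryos and whether libraries came from separate cultures are not stated either. Total RNA was sequenced, and of 23370 gene symbols 12168 had at least 1 RPKM (reads for each kilobase of a transcript after scaling for depth) in at least 2 libraries and were compared.

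IFN-β is a secreted antiviral cytokine. It binds the receptor chains Ifnar1 and Ifnar2, and the kinases Jak1 and Tyk2 then phosphorylate transcription factors of the STAT family. With Irf9, STAT proteins form a complex that binds the interferon-stimulated response element (ISRE), while STAT dimers bind the gamma-activated site (GAS). The genes switched on this way encode proteins that block viruses, sense foreign nucleic acids and present antigens, and also the inhibitors Socs1 and Usp18, which restrain the pathway. H3.3 is laid down in chromatin outside of S phase and is known to accumulate over transcribed genes, those induced by interferon among them.

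The 1 h library held 146280121 counts and the 4 h library 241435257, within a range of 83907506 to 268463961 over the 10 libraries. Both libraries of the pair had 43.7 and 44.4 RPKM of H19, an imprinted noncoding RNA, whereas the pretreated libraries at 0, 2 and 6 h had 9.39, 9.19 and 9.78. Postn, a matrix protein gene, split the arm in the same way, with 627 and 679 RPKM in the pair against 285, 303 and 326. The members of the pair were alike in both genes, but values of 1 h and 4 h set beside those of 0, 2 and 6 h cross this split, whose part in those differences was not tested. The ribosomal precursor Rn45s took 2.85% of the counts at 1 h and 1.14% at 4 h. The 10 fibroblast markers summed to 9992 RPKM at 1 h and 9302 at 4 h, led by Col1a1, Vim and Col1a2, although Lum, which encodes lumican, stood at only 0.010 and 0.195 RPKM. Markers of 6 other lineages (macrophage, endothelial, epithelial, muscle, neural, and adipocyte with chondrocyte) summed to between 2.21 and 34.8 RPKM each in the 2 libraries. Of the defining markers, Emr1, Tie1, Cldn4, Myod1, Myf5, Pax7 and Sox10 were at 0 in both, and no compared marker was 2-fold apart on the log2(RPKM + 1) scale. The largest gain was that of the neural marker Map2, at 1.48 and 3.73 RPKM.

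Promoters of 6 genes are printed because the results below turn on them: a GTPase and a ubiquitin-like modifier that were higher at 4 h (Gbp2, Isg15), an inhibitor and a transcription factor that were lower (Socs1, Irf1), a mitosis gene that was lower (Cdc20) and a chemokine with opposite directions in the arms (Cxcl1). Each is the stretch of 250 bases before the transcript start, 5′ to 3′ on the gene's strand, from RefSeq on GRCm38.p6, and each start coincided with that of the deposited transcript. Capitals mark matches on either strand to the ISRE core (GAAA, any 2 bases, GAAA), the GAS (TTC, any 3 bases, GAA), the cell cycle genes homology region (CHR) TTTGAA, which is found in promoters of mitosis genes, and the kappaB motif bound by NF-kB. Gbp2 lies on the plus strand at chr3:142620413-142620662, Isg15 on the minus strand at chr4:156200819-156201068, Socs1 on the minus strand at chr16:10785537-10785786, Irf1 on the plus strand at chr11:53769764-53770013, Cdc20 on the minus strand at chr4:118437344-118437593 and Cxcl1 on the plus strand at chr5:90890995-90891244.
Gbp2: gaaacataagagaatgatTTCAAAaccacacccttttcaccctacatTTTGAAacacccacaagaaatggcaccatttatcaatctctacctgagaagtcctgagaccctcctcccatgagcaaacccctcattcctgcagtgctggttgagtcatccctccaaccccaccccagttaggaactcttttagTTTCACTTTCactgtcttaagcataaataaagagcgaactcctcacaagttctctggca
Isg15: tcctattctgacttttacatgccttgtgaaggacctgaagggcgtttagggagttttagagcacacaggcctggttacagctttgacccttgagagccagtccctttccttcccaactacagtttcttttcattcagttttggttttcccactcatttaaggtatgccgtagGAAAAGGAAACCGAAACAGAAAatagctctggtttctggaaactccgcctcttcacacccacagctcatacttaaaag
Socs1: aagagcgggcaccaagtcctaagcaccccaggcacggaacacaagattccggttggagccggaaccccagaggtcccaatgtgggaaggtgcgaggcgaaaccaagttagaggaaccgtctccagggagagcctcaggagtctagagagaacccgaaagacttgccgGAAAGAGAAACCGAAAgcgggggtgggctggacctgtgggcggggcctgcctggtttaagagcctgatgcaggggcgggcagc
Irf1: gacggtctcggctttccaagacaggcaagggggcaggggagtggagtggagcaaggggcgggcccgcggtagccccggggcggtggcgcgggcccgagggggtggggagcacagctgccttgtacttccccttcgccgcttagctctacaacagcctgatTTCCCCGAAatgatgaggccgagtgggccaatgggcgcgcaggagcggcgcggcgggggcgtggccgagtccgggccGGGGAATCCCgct
Cdc20: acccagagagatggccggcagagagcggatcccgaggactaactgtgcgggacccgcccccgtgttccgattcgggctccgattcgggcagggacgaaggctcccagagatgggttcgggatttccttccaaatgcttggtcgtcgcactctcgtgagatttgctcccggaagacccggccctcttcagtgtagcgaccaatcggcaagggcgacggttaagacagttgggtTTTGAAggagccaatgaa
Cxcl1: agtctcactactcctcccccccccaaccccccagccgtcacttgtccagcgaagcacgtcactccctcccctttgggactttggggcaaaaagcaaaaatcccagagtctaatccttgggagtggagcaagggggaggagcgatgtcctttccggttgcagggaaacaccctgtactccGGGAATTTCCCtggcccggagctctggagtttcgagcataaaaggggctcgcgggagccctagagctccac
The capitals in Gbp2 are an ISRE whose first base lies 59 bases before the start and matches to the CHR that begin 232 and 203 bases before it. Those in Isg15 are 3 overlapping ISRE matches from 78 bases before the start, and those in Socs1 are 2 overlapping ISRE matches from 83 bases. Irf1 holds a GAS 90 bases and a kappaB match 13 bases before its start, Cdc20 a CHR match that begins 18 bases before it, and Cxcl1 a pair of overlapping kappaB matches from 71 bases. Over all 32851 promoters of that table, 2.98% held an ISRE, 7.02% a GAS, 7.25% a kappaB match and 15.99% a CHR. Of the 12168 genes compared, 9521 (78.2%) could be matched to a promoter. A match is a description of the sequence, not evidence of binding. Among matched promoters, 8 of 11 in the IFIT and OAS family list (72.7%) held an ISRE, against 2.75% of the 9521, and 5 of 14 in the list of ISG15 conjugation and ubiquitin ligases (35.7%). A CHR stood in 10 of 21 promoters of mitosis genes (47.6%) and in 3 of 25 of replication and S phase genes (12%), against 10.7% of the 9521. It was not confined to genes that were lower at 4 h. Of the interferon-inducible GTPases, 5 of 11 matched promoters (45.5%) held one, though only 55% of that list could be matched. The share was 21.4% in the ISG15 list and 9.09% in the IFIT and OAS family list. Matches to different motifs overlapped in 38 of the 9521 promoters. The share over all genes higher at 4 h is not given, because 69.1% of them could be matched, which is under the 80% set for such a check. The 78.2% matched in the reference and the 55% in the GTPase list are also under 80%, so shares that rest on them are rough.

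Between 1 h and 4 h the pretreated cells had more transcripts of the interferon response, while transcripts of mitosis genes, of Socs1 and Irf1 and of several small noncoding RNAs were lower. Of the 12168 genes, 220 were at least 2-fold higher at 4 h (1.81%) and 15 at least 2-fold lower (0.123%), on the log2(RPKM + 1) scale, which makes the fold of low genes too small. Of those higher, 66 were at least 3-fold, 23 at least 4-fold and 2 at least 8-fold higher. The median difference over all genes was -0.11 (SD over genes 0.36), and 65.4% of genes lay below 0. With trimmed-mean scaling of the counts the median was -0.01, so small negative differences are read against a shift of about that size, and medians of lists within it change sign with the scaling. The counting intervals given with ratios below are exact 95% intervals that cover counting error only. No p-value is given for the pair, since 1 library a time leaves no replicate.

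**Figure D1:**
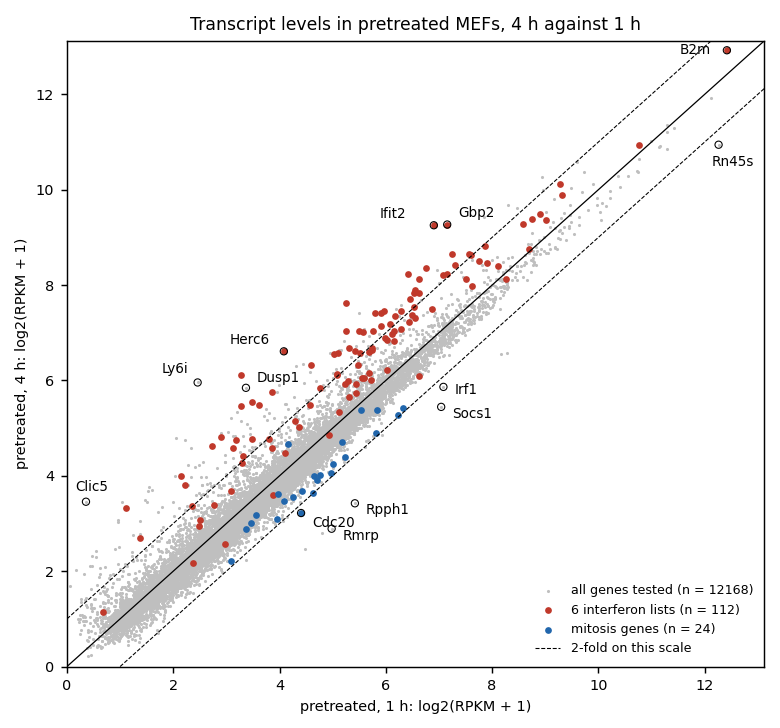
Level of each of the 12168 genes in the pretreated 1 h library (x axis) and 4 h library (y axis), both as log2(RPKM + 1), with a solid line at equality and dashed lines at 2-fold; red points are 112 genes of 6 interferon lists, blue points 24 mitosis genes and grey points all other genes. The red points lie mostly above the diagonal, with 53 beyond the upper line and none beyond the lower, and 23 of the 24 blue points lie below the diagonal.

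At the threshold the values ran without a gap. Just inside on the higher side were Inpp1, at 12.4 and 25.9 RPKM at 1 h and 4 h, and Mb, at 1.47 and 3.94 RPKM. Just outside were the class I genes H2-T22, at 91.9 and 185 RPKM, and H2-T9, at 93.4 and 187 RPKM. On the lower side Fam64a, at 15.8 and 7.30 RPKM, and Kif22, at 16.7 and 7.74 RPKM, were just inside. Cdca3, at 47.8 and 23.4 RPKM, and Bub1b, at 23.8 and 11.5 RPKM, were just outside.

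The 20 genes with the largest differences held more than textbook antiviral genes. Ly6i, which encodes a small membrane protein of the Ly6 family, stood first. Its level in the pretreated libraries was 13.3, 4.50, 5.18, 61.2 and 26.3 RPKM at 0, 1, 2, 4 and 6 h, and in the naive libraries 1.54, 1.68, 3.16, 13.9 and 25.4 RPKM at the same times. The pretreated 4 h library was thus the highest of the 10 and 1 h the lowest of its arm, a ratio of 13.6 (counting interval 12.5 to 14.8). Reads of Ly6i and its close relatives could be split by the counting, which makes its level uncertain. Clic5, which encodes a chloride intracellular channel protein, was at 0.213, 0.281, 6.83, 9.98 and 6.50 RPKM in the pretreated series and at 0.268, 0.347, 3.55, 9.55 and 6.01 RPKM in the naive one. It was near absence at 0 and 1 h in both arms and present from 2 h on, and its ratio of 4 h to 1 h was 35.5 (31.2 to 40.5).

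The PYHIN genes Pydc3 and Pydc4, near-identical copies between which reads could be shared, followed with differences of 2.84 and 2.75. Epsti1, an interferon-induced gene first described in epithelial-stromal interaction, went from 3.66 to 26.1 RPKM. Pdzd2, a gene for a protein with PDZ domains, went from 1.06 to 9.90 RPKM. The eosinophil chemokine gene Ccl11 stood at 1.89 and 11.9 RPKM. Lipg, which encodes endothelial lipase, stood at 7.46 and 36.4 RPKM. Mpeg1, the gene of the pore-forming protein perforin-2 and known as a macrophage-expressed gene, stood at 8.21 and 39.2 RPKM. The macrophage markers summed to 8.65 RPKM at 1 h and 7.45 at 4 h. Most of that was Cd14, at 5.78 and 4.55 RPKM, and Cd68, at 1.89 and 1.94 RPKM. Emr1 was at 0 in both, Ptprc at 0 and 0.002 RPKM and Csf1r at 0.133 and 0.096 RPKM. Dbc1, Sp110, AW112010 and Gbp1 differed by between 2.10 and 2.24, and the sensor genes Pyhin1 and Ddx60 and the Ifit family gene Gm14446 by 2.22, 2.18 and 2.36. Of the 220 higher genes, 144 were in none of the lists. Among them were Apod, the gene of the lipid carrier apolipoprotein D, at 229 and 685 RPKM, and Ly6a, at 499 and 1021 RPKM. Lgals9, the gene of galectin-9, was another, at 352 and 789.8 RPKM. These 3 were chosen after their values were seen.

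Genes that act directly against viruses were higher to unequal degrees. All 13 measured members of the IFIT and OAS family lay above 0, 6 of them 2-fold or more, with a median of 0.93 against -0.11 over all genes. Ifit2, which binds viral RNA and restrains translation, was at 14.4, 119, 502, 610.2 and 537 RPKM in the pretreated series, so that 1 h stood between a low 0 h level and a plateau from 2 h. In the naive series Ifit2 was at 2.59, 19.996, 176, 614 and 809 RPKM, and the 2 arms had almost the same level at 4 h. Gm14446, as given above, had nearly the same difference as Ifit2, while Ifit3 and Ifit1 were less far apart. Ifit3 had 620.0 and 1118 RPKM at 1 h and 4 h, with reads shared with its copy I830012O16Rik. Ifit1 had 638 and 949 RPKM, below its 2 h value of 1203. OAS enzymes make oligoadenylates on contact with double-stranded RNA. Oasl1 differed by 1.59 and Oas3 by 1.28 on the log2 scale, Oas1b by only 0.31.

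Of 24 other antiviral effectors, 10 were 2-fold or more higher and none lower, with a median of 0.85. Samhd1, which depletes the nucleotides that viral polymerases need, was at 56.6, 84.7, 229.9, 301 and 296 RPKM over the pretreated series. Its 4 h value was 3.56 times that of 1 h (counting interval 3.52 to 3.59). Schlafen genes, which restrict viral protein synthesis and cell growth, were also higher, with differences of 1.85 for Slfn5, 1.45 for Slfn9, 1.36 for Slfn8 and 1.23 for Slfn2. The ribonuclease gene Isg20 went from 33.3 to 93.9 RPKM. Other well-known effectors were less than 2-fold higher, near equal or lower. Rsad2, which encodes viperin, was at 13.3, 305, 650.3, 280.3 and 239 RPKM in the pretreated series, highest at 2 h and close at 1 h and 4 h. Mx1, a GTPase against influenza virus, had 195, 399.6 and 252 RPKM at 1, 2 and 4 h. Mx2 had 97.4, 111 and 66.9 RPKM, lower at 4 h than at 1 h by 0.54 on the log2 scale. In the naive pair the same genes were higher at 4 h, by 3.80 for Rsad2, 2.58 for Mx1 and 0.98 for Mx2.

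The interferon-inducible GTPases had the highest median of the lists, 1.38 over 20 genes, with 15 of them 2-fold or more higher. The guanylate-binding proteins and immunity-related GTPases attack the vacuoles in which intracellular microbes live. Gbp2 was at 38.98, 142, 538, 617 and 602 RPKM in the pretreated series and at 2.41, 73.7, 437, 619 and 810.3 RPKM in the naive one. The ratio of 4 h to 1 h was 4.35 (4.31 to 4.40), and from 2 h to 6 h its level hardly moved. Gbp5 went from 6.49 to 27.2 RPKM, Gbp10 from 13.5 to 53.1 and Gbp6 from 22.99 to 79.1. Among the immunity-related GTPases, Ifi47 differed by 1.61, whereas Irgm1 and Irgm2, regulators of the other members, differed by 0.55 and 0.63. Tgtp1 and Tgtp2, near-identical copies, had differences of 1.09 and 1.11. Gvin1 and Gm4070 had almost equal values in each library, 92.8 RPKM each at 4 h.

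Receptors that sense nucleic acids were mostly higher at 4 h, while the adaptors below them were not. Of 17 genes, 10 were 2-fold or more higher and 3 lay below 0, with a median of 1.32. The RNA sensor gene Ifih1, which encodes MDA5, was at 19.5, 37.03, 104, 131 and 93.4 RPKM over the pretreated series. Its partner Ddx58, the gene of RIG-I, was at 86.1 and 149.6 RPKM at 1 h and 4 h, a difference of 0.79. Zbp1, a sensor of Z-form nucleic acids, was at 90.9 and 228 RPKM. The endosomal receptor gene Tlr3 had 43.9 and 130.5 RPKM, with its highest value of the arm, 172, at 2 h. Mavs, the adaptor of both RNA sensors, had 13.7 and 11.1 RPKM, Tmem173, the gene of the adaptor STING, 29.7 and 28.1, and Mb21d1, the gene of the DNA sensor cGAS, 6.89 and 4.95 RPKM. Mb21d1 was thus back near its 0 h level of 4.61 RPKM after a 2 h value of 13.2.

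Genes of antigen presentation differed by less. All 22 class I and antigen processing genes lay above 0, but 4 were 2-fold or more higher (Nlrc5, H2-T23, Tap2 and Psmb10), and the median was 0.81. Nlrc5, the transactivator of class I genes, was at 6.86, 10.1, 29.01, 46.1 and 31.9 RPKM over the pretreated series, and its difference of 2.08 was the largest of the list. The heavy chain gene H2-K1 was at 325, 428, 425, 665 and 559.8 RPKM in the pretreated series and at 9.94, 13.3, 37.7, 379 and 288 RPKM in the naive one. It differed by 0.63 in the pretreated pair and by 4.74 in the naive pair. B2m, which encodes the light chain, had 5479 and 7781 RPKM, a difference of 0.51. The immunoproteasome subunit genes Psmb8, Psmb9 and Psmb10 differed by 0.86, 0.91 and 1.02. Reads of the class I heavy chains can be exchanged between near-identical genes. The class II genes Cd74, H2-Aa and H2-Ab1, chosen after their values were seen, were also 2-fold or more higher at low levels, at 5.23 and 11.8, 0.270 and 1.64, and 0.288 and 1.72 RPKM.

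Genes of the ISG15 system, in which a ubiquitin-like protein is joined to other proteins, were all above 0 in the list of 16, 8 of them 2-fold or more, with a median of 0.997. Isg15 itself was at 82.7, 141, 173, 300.2 and 322 RPKM in the pretreated series and 0.608, 15.9, 62.04, 195 and 254 RPKM in the naive one. Its 4 h value was 2.13 times that of 1 h (2.09 to 2.16) in the pretreated arm. Herc6, the gene of the mouse ISG15 ligase, was at 11.1, 15.9, 58.5, 96.8 and 80.3 RPKM, with a difference of 2.53 that led the list. The activating enzyme gene Uba7 had 26.2 and 56.3 RPKM and the conjugating enzyme gene Ube2l6 71.02 and 162. Usp18, which removes ISG15 and also blocks the interferon receptor, had 150.5 and 399 RPKM at 1 h and 4 h after 76.6 at 0 h. Of the PARP family, 4 of 11 genes were 2-fold or more higher (Parp11, Parp12, Parp14 and Parp9), with a median of 0.76. Parp1, the main DNA repair member, was lower, at 16.995 and 11.7 RPKM.

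**Figure D2:**
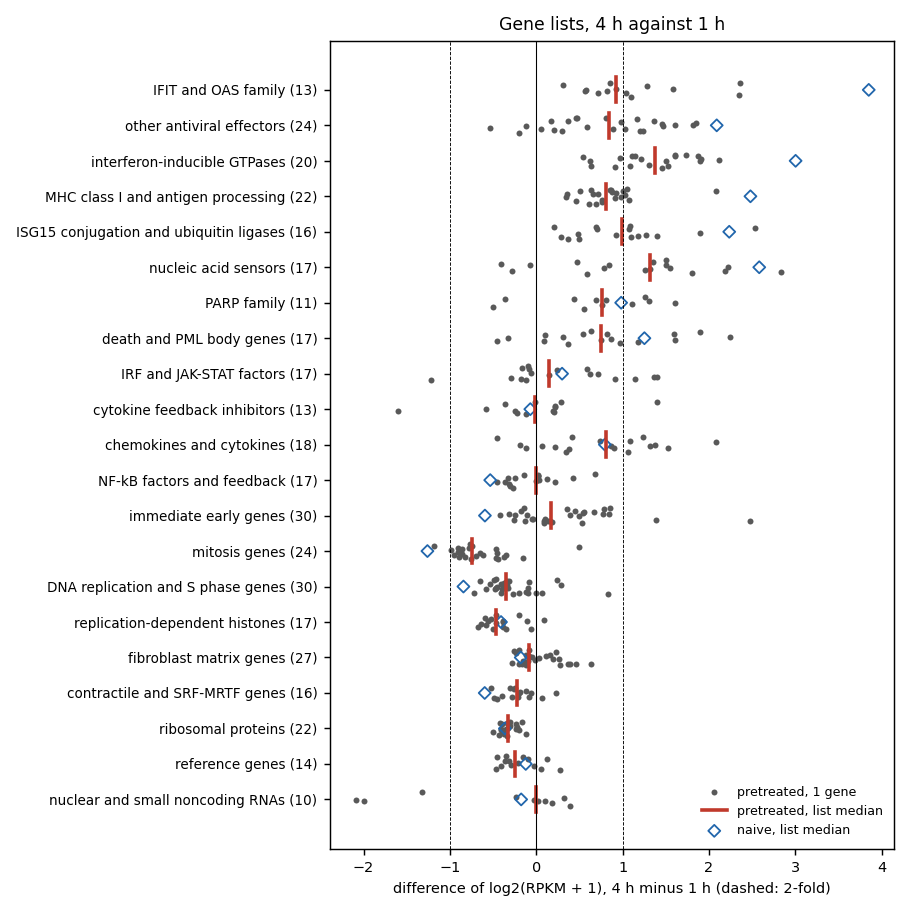
Difference between 4 h and 1 h of pretreated cells in log2(RPKM + 1) (x axis) for each measured member of selected lists (points, 1 row a list), with the pretreated median as a red bar and the median of the same genes in the naive pair as a blue diamond. The medians of the 6 interferon lists lie right of 0, up to 1.38 for the GTPases, and their naive medians lie further right; the mitosis median lies left of 0 at -0.75.

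Regulators of the pathway did not share one direction. Of 17 interferon regulatory factor, JAK and STAT genes, 3 were 2-fold or more higher, Jak2 and Batf2 among them, and 1 was lower (Irf1), with a median of 0.15. The kinase gene Jak2 was at 11.4, 16.2, 35.9, 44.3 and 36.5 RPKM, close to its naive course of 9.28, 14.4, 33.5, 42.4 and 46.3 RPKM. Irf7, which drives later interferon production, had 174 and 287 RPKM. Irf9, the DNA-binding part of the ISRE complex, had 87.2 and 82.2 RPKM, and the receptor gene Ifnar1 had 14.7 and 13.5. Irf1, an early transcription factor gene with a GAS in the promoter printed above, was at 27.9, 135, 138, 57.3 and 65.9 RPKM, high at 1 and 2 h and then lower. The 1 h value was 2.35 times that of 4 h (2.32 to 2.39).

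The inhibitors parted in the same manner. Socs1, which blocks the JAK kinases, was at 11.98, 131, 206, 42.6 and 33.2 RPKM in the pretreated series, so that its 1 and 2 h libraries were far above the other 3. In the naive series Socs1 was at 8.90, 161, 157, 92.6 and 64.96 RPKM. From 1 h to 4 h it was lower by 1.60 on the log2 scale in pretreated and by 0.79 in naive cells, and the pretreated 1 h value was 3.07 times that of 4 h (3.01 to 3.14). Usp18 was higher at 4 h, as given above. Socs3, an inhibitor that also acts on gp130 cytokines, had 15.9 and 12.2 RPKM in the pretreated pair against 213 and 13.2 in the naive pair. Cish had 3.92 and 2.27 RPKM against 22.1 and 2.31. The 13 feedback inhibitors had a median of -0.02, with 1 gene higher and 1 lower by 2-fold.

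Of 18 chemokine and cytokine genes, 7 were 2-fold or more higher and none 2-fold lower, with a median of 0.80. By sign alone 15 lay above 0 and 3 below. Cxcl10, a ligand of the T cell receptor CXCR3, was at 11.7, 490.4, 1412, 1225 and 719 RPKM in the pretreated series, highest at 2 h. Cxcl9, another ligand of CXCR3, had 0.943 and 7.22 RPKM, and Ccl5 had 50.7 and 121. Il15, which supports natural killer cells, was at 3.83, 19.8 and 12.9 RPKM at 1, 2 and 4 h. Ccl2, the monocyte attractant, was at 285, 315, 528, 818 and 932 RPKM in the pretreated series and 95.1, 678, 409, 724 and 606 RPKM in the naive one, where the 1 h and 4 h values were close. Cxcl1, the neutrophil attractant, was at 10.5, 4.74, 1.26, 11.2 and 10.6 RPKM in the pretreated and 13.4, 19.4, 3.77, 5.77 and 5.65 RPKM in the naive series. It was the only gene of the 12168 at least 2-fold apart in opposite directions, by 1.09 in pretreated and -1.59 in naive cells, and that difference between the arms was not tested. Tnfsf10, the gene of the death ligand TRAIL, had 16.8, 58.1 and 15.4 RPKM, with its maximum of the arm at 2 h.

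Immediate early genes are those whose transcripts appear within minutes of many stimuli and of a change of medium. Of 30 such genes, 2 were 2-fold or more higher and none lower, against 1.81% and 0.123% of all genes. Dusp1, a phosphatase that switches off MAP kinases, was at 42.3, 9.33, 17.7, 56.5 and 44.9 RPKM in the pretreated series and 36.5, 10.2, 15.3, 33.8 and 29.6 RPKM in the naive one. In both arms 1 h was the lowest of the 5 values, and the pretreated 4 h value was 6.06 times that of 1 h (5.82 to 6.31). Nr4a3 had 0.635 and 3.28 RPKM. Its relative Nr4a1 was at 10.3, 42.3, 5.93, 76.8 and 27.04 RPKM in the pretreated series, which put the 1 h and 4 h libraries above the other 3. Egr1 had 106 and 98.4 RPKM against 49.8, 57.5 and 42.02 at 0, 2 and 6 h, the same split of the arm as for H19. The NF-kB list held no gene 2-fold apart among 17, and Nfkbia, the inhibitor induced by NF-kB, was at 53.9 and 54.6 RPKM.

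Mitosis genes were lower at 4 h in 23 of 24 cases, by moderate amounts. Their median was -0.75 against -0.11 over all genes, 16 of the 24 lay at or below -0.5, and Cdc20 was the only member at 2-fold. In the naive pair the same list was further down, with a median of -1.26 and 18 of the 24 genes 2-fold or more lower. Cdc20, an activator of the anaphase-promoting complex, was at 35.2, 20.2, 16.8, 8.32 and 10.8 RPKM in the pretreated series and 45.1, 41.7, 28.8, 10.9 and 11.96 RPKM in the naive one. The ratio of 1 h to 4 h was 2.43 (2.33 to 2.53). Kif20a, a kinesin of cytokinesis, had 73.8 and 37.7 RPKM, Ube2c, the partner of Cdc20 in protein destruction, 79.6 and 42.04, and Birc5, the gene of survivin, 54.98 and 28.8. The kinase genes Plk1, Aurka and Aurkb differed by -0.77, -0.78 and -0.74. Cenpe was the exception, at 16.99 and 24.3 RPKM. In bulk RNA fewer cells in mitosis and less RNA per cell cannot be told apart.

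Replication and S phase genes were closer to the background, with a median of -0.34 over 30 genes and none 2-fold apart. Tk1, which salvages thymidine, had 21.9 and 12.9 RPKM and Mcm7, a subunit of the replicative helicase, 24.2 and 15.1. Mcm6, another subunit, went the other way, at 57.8, 51.4, 88.1, 92.3 and 109 RPKM over the pretreated series. Of 17 replication-dependent histone genes 16 lay below 0, with a median of -0.47, at levels mostly under 10 RPKM. The linker histone gene Hist1h1c had 57.3 and 35.4 RPKM. The variant histone gene H2afx, which marks DNA breaks when phosphorylated, was one of the 15 genes at 2-fold, at 59.6 and 27.99 RPKM. The H3.3 genes were near equal, H3f3a at 85.3 and 79.3 RPKM and H3f3b, whose row covers the knock-in locus, at 12.8 and 10.6 RPKM. Daxx, a chaperone of H3.3, had 78.5, 173 and 115 RPKM at 1, 2 and 4 h.

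Several rows of noncoding RNAs were among the 15 lower genes, but the list of nuclear and small noncoding RNAs had no common direction. Of its 10 members 3 were 2-fold or more lower (Rmrp, Rpph1 and Rn45s) and none higher, 5 lay below 0 and 5 above, and the median was -0.00203, a sign that changes with the scaling. Other small RNA rows were among the 220 higher genes: Snord82, at 8.70 and 34.7 RPKM, which lies inside Ncl, and Snora81, Mir378b and Mir147. Rmrp, the RNA of RNase MRP, was at 76.01, 30.6, 4.58, 6.42 and 3.57 RPKM in the pretreated series and 5.98, 21.9, 4.30, 6.69 and 3.63 RPKM in the naive one. Rpph1, the RNA of RNase P, was at 110.2, 41.8, 7.08, 9.73 and 7.39 RPKM in the pretreated series, and Rprl3, named as an RNase P RNA-like gene, had 21.2 and 4.51 RPKM. Rn45s was at 6751, 4916, 2452, 1970.4 and 1958 RPKM, so its level was highest at 0 h, next at 1 h and lower at 2, 4 and 6 h. Lars2, the gene of a mitochondrial leucyl-tRNA synthetase, had 286 and 92.9 RPKM at 1 h and 4 h, and Mir5109 had 312 and 95.1. Each of these RNAs was highest at 0 h and next at 1 h within the pretreated arm, as was the Rn45s share of the counts, 3.90% at 0 h, 2.85% at 1 h and 1.14% at 4 h. The part of that share in their values was not tested. Mir5121 lies inside Rpl13a and Mir1894 inside Ppp1r10, so their reads may be those of the host. Mir1894 rested on 27 counts at 1 h and 12 at 4 h. The long nuclear RNA Malat1 had 163 and 204 RPKM and Neat1 105 and 119.6. The 15 lower genes were completed by Map3k8, a MAP kinase kinase kinase, at 9.39 and 3.70 RPKM, and by Kif22 and Fam64a.

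Housekeeping groups lay slightly below 0. All 22 ribosomal protein genes were below 0 with a median of -0.33, and 14 reference genes had a median of -0.25, against -0.11 over all genes. No gene of either group was 2-fold apart. Matrix genes had a median of -0.08 over 27, with none 2-fold apart. The largest of their differences was that of Thbs1, the gene of thrombospondin 1, at 849 and 1320.3 RPKM.

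**Figure D3:**
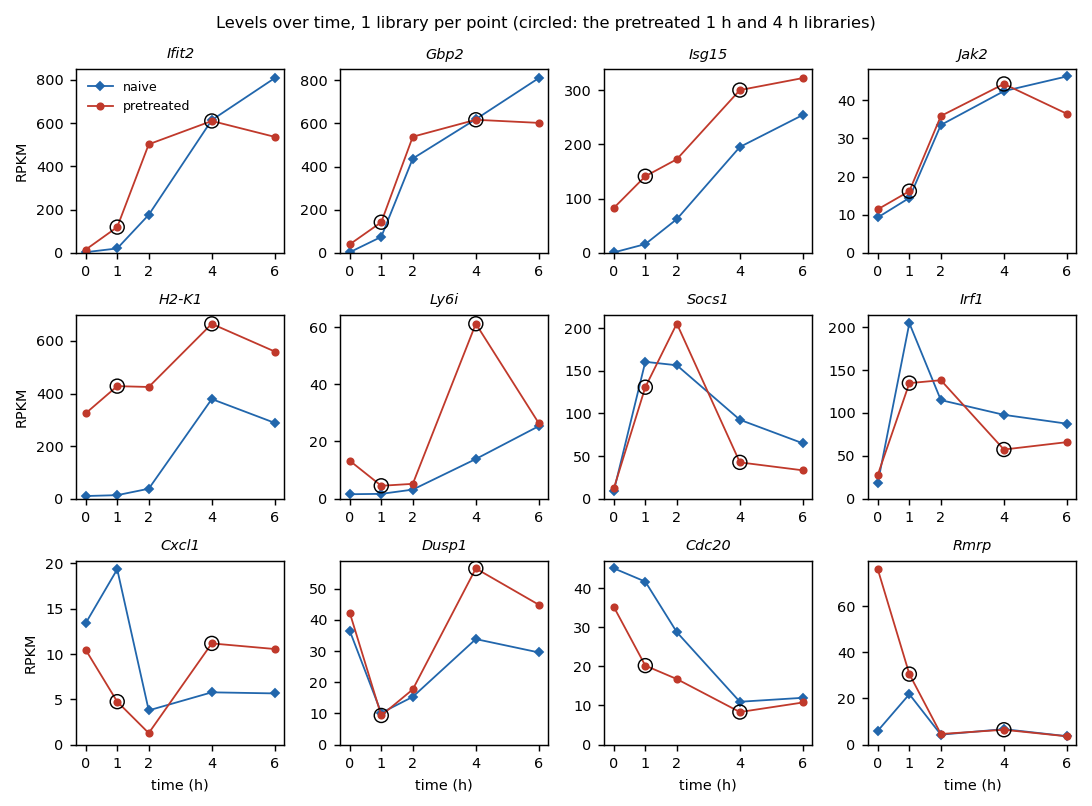
RPKM (y axis, linear, its own range in each panel) at 0, 1, 2, 4 and 6 h (x axis) of 12 genes in the pretreated libraries (red) and the naive libraries (blue), 1 library a point, with circles around pretreated 1 h and 4 h. At 4 h the pretreated and naive curves meet at 610.2 and 614 RPKM for Ifit2 and at 617 and 619 for Gbp2, Socs1 and Irf1 are high at 1 and 2 h, and Cdc20 and Rmrp are lower at 4 h than at 1 h.

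The naive pair at the same hours, which shares no library with the pretreated pair, was set beside it. H19 went from 123 to 53.4 RPKM in the naive pair, and stood at 109.7, 89.5 and 55.2 at 0, 2 and 6 h, whereas it was close in the pretreated pair. The part of that shift in the differences between the pairs was not tested. In naive cells 534 genes were 2-fold or more higher at 4 h than at 1 h (4.39%) and 304 lower (2.5%), against 220 and 15 in pretreated cells. Of the 220 genes, 204 (92.7%) were also 2-fold higher in the naive pair, where they made up 38.2% of the 534. Of the 15 lower genes, 8 (53.3%) were 2-fold lower in naive cells, or 2.63% of the 304. These were Cdc20, Fam64a, H2afx, Irf1, Kif22, Rmrp, Rpph1 and Rprl3, whereas Rn45s, Lars2 and Mir5109 differed by only -0.31, -0.10 and -0.66 in naive cells. Over the 220 genes the median difference was 1.33 in pretreated cells, by which they were chosen, and 2.16 in naive cells, and 190 of them had the larger difference in naive cells. Their median level in the pretreated libraries was 7.85, 9.58, 25.1, 28.7 and 28.2 RPKM at 0, 1, 2, 4 and 6 h. In the naive libraries it was 1.48, 4.34, 13.0, 27.5 and 31.2 RPKM, so the arms were close at 4 h and the 1 h level was lower in naive cells. The 6 interferon lists together, 112 genes, had a median of 0.97 in the pretreated and 2.57 in the naive pair, and 109 of the 112 had the larger value in naive cells. The exceptions were Ch25h, Ifitm2 and Tmem173.

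Of the 220 genes, 16 were not 2-fold higher in the naive pair, among them Zfp36l2, Stk39, Gm20748, Ndst3, Npr1, Gm16908, Cxcl1, Ptgs2, Ptchd4, Snora81, Pacsin1, Mir378b, Ccl2, Nr4a3 and Mmp13. Still, 217 of the 220 lay above 0 there. Pacsin1 at 0.93, Stk39 and Ptchd4 at 0.84 and Ptgs2 at 0.77 missed 2-fold narrowly. The fit over both arms given below called each of them higher. That fit includes the pretreated pair by which they were chosen, so it is no separate check of the naive pair. Further from 2-fold were Snora81 at 0.13, Ccl2 at 0.09 and Zfp36l2 at -0.27. The 3 described next were chosen after their values were seen. Ptgs2, the gene of the prostaglandin enzyme cyclooxygenase-2, was at 27.9, 31.2, 65.2, 70.1 and 49.1 RPKM in the pretreated series and 15.3, 15.6, 29.5, 27.4 and 21.4 RPKM in the naive one. Zfp36l2, which promotes decay of AU-rich messenger RNAs, was at 142, 101, 106, 206 and 167 RPKM in the pretreated and 168, 211, 133, 175 and 168 RPKM in the naive series. Mmp13, the gene of a collagenase, was at 1.70, 2.29, 11.7, 8.43 and 10.2 RPKM in the pretreated and 0.471, 4.92, 9.60, 7.66 and 8.05 RPKM in the naive series. In these 3 genes the naive 1 h library was not as low relative to 4 h as the pretreated one.

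At 1.5-fold, 13 genes went in opposite directions in the 2 pairs, 8 of them higher in pretreated cells. Ier3, an early gene of survival signalling, went from 14.4 to 23.7 RPKM in pretreated and from 70.4 to 15.9 in naive cells. Nr4a1 went from 42.3 to 76.8 and from 29.7 to 12.7 RPKM. H2-K2, which shares sequence with H2-K1, went from 29.2 down to 15.8 in pretreated and from 3.18 up to 26.2 RPKM in naive cells. Other early genes were near equal in the pretreated pair and lower at 4 h in the naive one. Junb, a subunit of the AP-1 factor, stood at 40.5 and 46.03 RPKM in the pretreated and at 159 and 30.3 in the naive pair. Bcl3, a cofactor of NF-kB, stood at 10.6 and 10.9 RPKM against 94.4 and 10.9. Over the 30 immediate early genes the median was 0.17 in pretreated and -0.59 in naive cells. In naive cells 10 of them were 2-fold lower, against 2.5% of all genes. None of these differences between the arms was tested, since each pair holds 1 library a time.

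**Figure D4:**
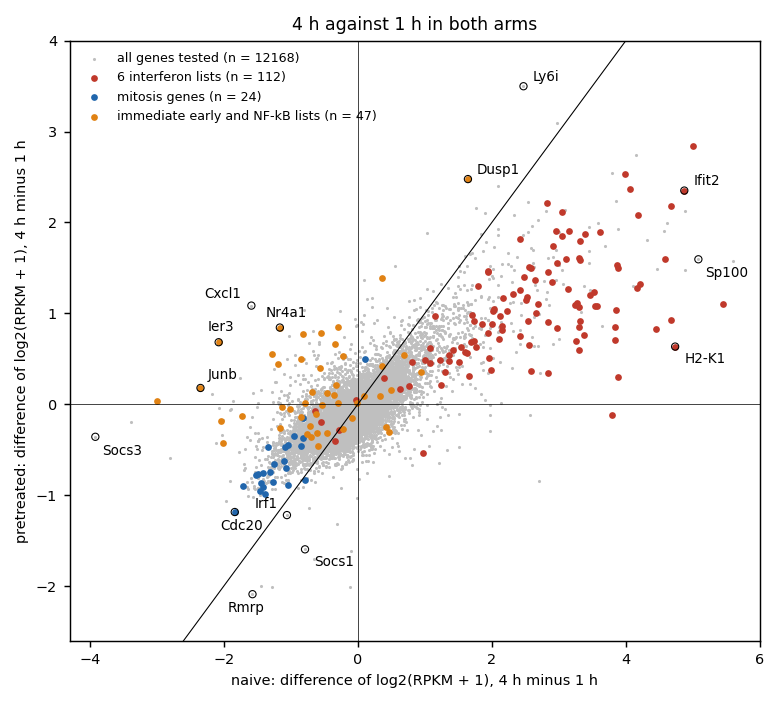
Difference between 4 h and 1 h in log2(RPKM + 1) of naive cells (x axis) and pretreated cells (y axis) for the 12168 genes, with the 6 interferon lists in red, mitosis genes in blue and the 47 immediate early and NF-kB genes in orange; the sloped line marks equal differences. Of the 112 red points 109 lie below that line, with the larger difference in naive cells, and orange points reach well below 0 on the naive axis but not on the pretreated one.

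A later pair of the same arm, 6 h against 2 h, shares no library with 4 h against 1 h. There 91 genes were 2-fold or more higher (0.748%) and 66 lower (0.542%). Of the 220 genes, 28 (12.7%) were 2-fold higher in that pair too, or 30.8% of its 91, and the median over the 220 was 0.32. Ly6i was among them, at 5.18 and 26.3 RPKM at 2 h and 6 h. Of the 15 lower genes 4 (26.7%) were also lower, or 6.06% of the 66, among them Socs1 and Irf1. Mitosis genes had a median of -0.59 in this pair, with 23 of 24 again below 0.

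To give the difference between 4 h and 1 h a test, both arms were fitted together with edgeR's quasi-likelihood method on the counts, with arm and time as terms over all 10 libraries and 4 residual degrees of freedom. The pair itself is part of this fit, and its p-values measure the spread between arms and times, not between cultures. The fit called 1163 genes (9.56%) at an adjusted p under 0.05, 736 higher at 4 h (6.05%) and 427 lower (3.51%). The calls rested on single libraries. Without the naive 1 h or without the pretreated 4 h library edgeR called 0 genes (1839 and 3212 at an unadjusted p under 0.05), and without naive 4 h it called Clic5 and Dusp1 alone. Without pretreated 1 h it called 920 higher and 999 lower, and DESeq2 on all libraries called 1565 and 1267. Without the pretreated 0, 2 and 6 h libraries, which stood apart from the pair in H19 and Postn, 482 genes were called higher and 95 lower. The share of higher genes among calls was 63.3%, but 45.8% with upper-quartile scaling and 40.9% with limma on the RPKM.

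Mitosis genes were the list with the most calls in that fit. Of 24, 20 fell and none rose, while over all genes 3.51% fell and 6.05% rose. The 4 that did not pass were Cenpe, Tpx2, Kif11 and Ccnf. Without the pretreated 0, 2 and 6 h libraries 12 of the 24 fell, and without any 1 of naive 1 h, naive 4 h and pretreated 4 h none did, although 23 of the 24 stayed below 0 in each of these fits. Cdc20 fell by 1.53 in log2 units (SE 0.20, edgeR adjusted p = 0.0213), and H2afx fell by 1.48 (SE 0.25, edgeR adjusted p = 0.0245). Of the genes with the 10 largest falls, Sapcd2 led at -2.11, followed by Tnfaip8l1 at -1.85 and Ankle1 at -1.54. The others were Depdc1b, H1fx, Rfx2, Chtf18 and Fam64a, from -1.39 to -1.35. Of 30 replication and S phase genes 5 fell (Mcm7, Chaf1a, Tk1, Ccna2 and Rrm1), against 3.51% of all genes. In the same list 1 rose (Mcm6), which is under the 6.05% of all genes.

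Clic5 rose by 5.05 (SE 0.34, edgeR adjusted p = 0.0109), behind only 4930404A10Rik and Cngb3 in size. Dusp1 rose by 2.27 (SE 0.20, edgeR adjusted p = 0.0168). Other large rises were those of 4930404A10Rik, Cngb3, Btnl6, AW112010, Casp1, Ms4a4d, Lmo2, Ifit2 and Piwil4, from 3.70 to 6.31, in genes at under 1 RPKM at 1 h in both arms except Ifit2 and Ms4a4d. Casp1 encodes the protease that matures interleukin-1 beta, at 0.255 and 2.83 RPKM in the pretreated pair. Jak2 rose by 1.61 and Cxcl9 by 3.23, with edgeR adjusted p-values of 0.0200 and 0.0200. Ifit2 rose by 3.72 (SE 0.87, edgeR adjusted p = 0.0440).

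Most members of the interferon lists did not pass. A difference between the arms in the size of a change counts as error in this fit. Of the IFIT and OAS family 1 of 13 rose, of other antiviral effectors 5 of 24, of GTPases 2 of 20, of class I and antigen processing genes 2 of 22, of the ISG15 list 1 of 16 and of sensors 1 of 17. Over all genes 6.05% rose, and 1 of 13, 2 of 22, 1 of 16 and 1 of 17 are near that share. None of these lists held a gene that fell. Isg15, for which the fit gave 2.54 with an SE of 1.36, had an edgeR adjusted p of 0.229 and Gbp2 of 0.0977. Of the PARP family 4 of 11 rose (Parp8, Parp11, Parp3 and Parp4), of death and PML body genes 5 of 17 and of chemokines and cytokines 5 of 18 (Cxcl9, Il7, Il15, Ccl5 and Cxcl16). Socs1, at -1.05, had an edgeR adjusted p of 0.123, and Irf1, at -1.04, of 0.0842. Rmrp, at -1.84, did not pass either (edgeR adjusted p = 0.167).

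The genes that were higher at 4 h lay close together in the genome. Of the 220, 76 (34.5%) had another of the 220 within 100 kb, whereas 386 of all 12168 genes (3.17%) had one of them that near. There were 10 runs of 3 or more neighbours, with 46 genes, on mm10. The run with the most genes, chr11:48887422-49135387, held 7 of 8 compared genes: Gm5431, 9930111J21Rik1, 9930111J21Rik2, Tgtp1, Olfr56, Tgtp2 and Ifi47. The PYHIN run at chr1:173521311-173766919 held 6 of 6 (BC094916, Pydc4, Pyhin1, Pydc3, AI607873 and Ifi204), and the Phf11 run at chr14:59244441-59440877 held 6 of 6, Setdb2 among them. The Gbp genes formed a run of 5 of 5 at chr3:142496934-142638008 (Gbp5, Gbp7, Gbp3, Gbp1 and Gbp2) and one of 5 of 5 at chr5:105014153-105293699 (Gbp8, Gbp9, Gbp4, Gbp10 and Gbp6). Sp110, Sp140 and Sp100, genes of nuclear bodies, formed a run of 3 of 3 at chr1:85576899-85709448, with levels at 1 h and 4 h of 4.07 and 22.96, 7.16 and 29.3, and 36.3 and 112 RPKM. Neighbours in such runs are often copies of one another, so reads that align to several of them may tie their values. The 220 genes had a median span of 21.7 kb, close to the 20.2 kb of all genes. The 15 lower genes had a median span of 1.73 kb and a median of 1 exon.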

How the data were processed

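RNA-seq of 10 libraries of MEFs was used, 1 per arm and time. The deposited table lists 30646 RefSeq transcripts with both a count of tags and an RPKM in every library. Raw counts of tags were deposited by the authors with no normalization, per the file headers. The RPKM values deposited by the authors equal the count times 1 factor per library and 1 per transcript, within 4.03e-05 log2 in 4205 transcripts checked. The submitters' processing notes name Bowtie, TopHat and Cufflinks 1.2.1 with mm10. The sources used here do not give the counting tool, the use of strand, the handling of reads with several alignments or the library factor behind RPKM, so near-identical or overlapping genes can share reads.

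Of the transcripts, 15 named no gene (0.0157% to 0.0193% of counts per library) and were left out. For each of 23370 symbols the transcript with the highest mean RPKM over 10 libraries was kept (4306 symbols had more than 1), and the 12168 symbols that reached 1 RPKM in 2 or more libraries were tested. Depth was 83907506 to 268463961 counts per library, so counting error is small beside any difference between cultures, which 1 library a group cannot show. Pairs of libraries were compared by the difference in log2(RPKM + 1), with 2-fold as the threshold and no test. Ratios of RPKM carry exact Clopper-Pearson 95% intervals from the counts, for counting error only. The test of 4 h against 1 h over both arms used the quasi-likelihood test of edgeR 4.0.16 (R 4.3.3) with trimmed-mean scaling and Benjamini-Hochberg adjustment. Its p-values measure spread between these libraries. Tested on simulated data of 12168 genes with 200 changed, this fit recovered 0% of genes changed 1.5-fold, 60% of those changed 2-fold, 96% at 4-fold and 100% at 8-fold, with 10 false among 138 calls. The simulated data followed the same model of arm and time, with each change equal in both arms. These rates therefore do not cover genes whose change differs between the arms, or a split of libraries such as that in H19.

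Alternatives were other pseudocounts, filters and scalings, DESeq2 1.42.0, limma 3.58.1 and libraries left out. Named genes were the 20 largest differences in each direction among genes at 5 RPKM or more in the pair, the 10 largest edgeR calls in each direction, members of 42 gene lists beside their list's count, and genes 2-fold apart in opposite directions in the arms. The members and lists were chosen with earlier results of these data known. Promoters came from RefSeq (GRCm38.p6). Tables and figures used Python 3.11.15 with numpy 2.4.6, pandas 2.3.3 and scipy 1.17.1. Results on some genes are not reported here.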

Additional observations from a re-analysis of the deposited data

Results flagged for a closer look

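Cxcl1 was the only gene at least 2-fold apart between 4 h and 1 h in opposite directions in the arms. Its difference in log2(RPKM + 1) was 1.09 in pretreated cells and -1.59 in naive cells. The difference between the arms was not tested, since each arm has 1 library a time. The pretreated 1 h and 4 h values were 4.74 and 11.2 RPKM and the naive ones 19.4 and 5.77 RPKM.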

How the results depend on the processing

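In the pretreated pair, a pseudocount of 0.1 gave 319 genes higher and 57 lower and a pseudocount of 5 gave 127 and 9, against 220 and 15. The other filters and scalings kept both counts within 1.5 times. Over both arms edgeR called 736 genes higher and 427 lower. DESeq2 called 1565 and 1267, upper-quartile scaling 632 and 747, limma 680 and 982, and a fit to only the 4 libraries at 1 h and 4 h 286 and 23. Without the pretreated 0 h library the calls were 558 and 215, and without pretreated 0, 2 and 6 h 482 and 95. Leaving out each library at 1 h and 4 h in turn, an alternative chosen after seeing the data, gave 0 to 920 higher and 0 to 999 lower. Most calls were thus higher at 4 h in the main setting but lower with upper-quartile scaling, with limma and without pretreated 1 h (920 and 999). In the pair, the genes checked singly were the 20 largest differences in each direction and Cxcl1. Over both arms they were those 20 in each direction and the 10 largest edgeR calls in each direction. None of the checked genes that passed a threshold changed sign. Other members of the lists were not checked singly. Over both arms, all 33 checked results with a call lost it under at least 1 alternative (125 cases of a result and an alternative). The fit without the naive 1 h library, which called 0 genes, removed every one of these calls. Another 16 checked results gained a call (56 cases). Medians of lists within about 0.1 of 0 on the log2 scale depend on the scaling for their sign. No paired analysis was possible because the labels give no replicate numbers and each group has 1 library. Depth does not limit genes at many RPKM, while Mir1894 rested on 27 and 12 counts.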
